A study of Mus musculus with 24 samples.

Results

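Liver cells push drugs, conjugates and bile components out through ATP-binding cassette (ABC) pumps, and 8 of their genes are described here across 3 mouse genotypes and 4 treatments: Abcc2, Abcc3, Abcc4, Abcc6, Abcb1a, Abcb4, Abcb11 and Abcg2. Members were chosen by gene name, and every probe set annotated to one of them was taken. A probe set is the group of short probes that reads 1 transcript on an Affymetrix array. Of the 8 genes 7 had a probe set, with 8 probe sets in all of the 22690 on the array. No probe set was annotated to Abcc4, which is not analysed here.

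RNA of livers from 24 female mice of mixed C57BL/6x129Sv background was measured on 1 array per mouse, with 2 mice in each of 12 groups. Human CAR mice carried a transgene for human CAR driven by the mouse albumin promoter, which acts mainly in hepatocytes, in the mCAR-/- background, so they also lacked mouse CAR. Knockout mice were mCAR-/-, and wild-type mice had mouse CAR alone. CAR is the constitutive androstane receptor, a nuclear receptor of hepatocytes encoded by Nr1i3 in the mouse. In each genotype some mice received TCPOBOP, a ligand of mouse CAR, as 1 dose of 3 mg/kg on day 1 and corn oil on the later days. Other mice received phenobarbital (spelled phenobarbitol in the labels), which moves both receptors into the nucleus, at 100 mg/kg per day. Others received CITCO, a ligand of human CAR, at 30 mg/kg per day, and control mice received the corn oil vehicle. Injections were intraperitoneal over 3 days, and livers were taken 6 h after the last one. With 2 mice per group the number of arrays limits the precision of every value, and nothing in the labels says whether mice shared litters or cages.

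ABC pumps use the energy of ATP to move molecules out of a cell against a gradient. In hepatocytes some of them face the bile canaliculus and drive bile formation, and others face the blood and return conjugates to the circulation. CAR acts on DNA as a partner of the retinoid X receptor and is known for inducing drug-metabolising enzymes and some transporters, with Cyp2b10 as its best known target in mouse liver.

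Values are log2 levels, and a change is a difference of 2 group means on that log2 scale with the standard error (SE) of a limma fit to all 24 arrays. Each p-value was corrected over the 13524 probe sets tested (Benjamini-Hochberg), and a change was called where its adjusted p was under 0.05. These were the probe sets with 1 gene symbol that lay above the 40th percentile of their array on at least 2 arrays. Of the 8 probe sets 6 were tested, and each of the 6 lay above that limit on all 24 arrays. Both Abcb1a probe sets lay below it on all 24 arrays and were not tested. The array reads liver as a whole, in which fewer cells of a type and less RNA per cell cannot be told apart.

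The arrays were checked before the pumps were compared. The Nr1i3 transcript lay between 5.03 and 5.60 on the 16 arrays of human CAR and knockout mice, against 6.84 to 8.0 on the 8 wild-type arrays. All 6 measured hepatocyte markers, among them albumin and transthyretin, lay above the dim limit on all 24 arrays. A pair of arrays stood apart, replicate 2 of the knockout phenobarbital group and replicate 1 of the human CAR phenobarbital group. Median correlation with the other arrays was 0.978 for the knockout array and 0.967 for the human CAR array, against 0.980 to 0.991 for the other 22 arrays. Several phenobarbital results of those genotypes are therefore also given without both. The labels give no batch or date that could be used as a block.

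Promoters of 3 pumps that face bile are shown, Abcb4 because it is the canalicular pump with a called change, and Abcc2 and Abcb11 because their promoters are known targets of nuclear receptors. The sequences are RefSeq windows of GRCm38.p6, read 5′ to 3′ on the gene's strand and ending at the base before the start of the gene. For Abcb4 only the 143 bases outside the gene's annotated span are shown. Capitals mark a nuclear receptor hexamer, searched as AGGTCA or AGTTCA on both strands, or the antioxidant response core, searched as TGACNNNGC on both strands.
Abcb4, chr5:8893471-8893613, + strand: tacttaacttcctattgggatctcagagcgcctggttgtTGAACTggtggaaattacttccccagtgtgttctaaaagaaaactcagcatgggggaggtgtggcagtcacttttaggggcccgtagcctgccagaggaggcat
Abcc2, chr19:43782058-43782307, + strand: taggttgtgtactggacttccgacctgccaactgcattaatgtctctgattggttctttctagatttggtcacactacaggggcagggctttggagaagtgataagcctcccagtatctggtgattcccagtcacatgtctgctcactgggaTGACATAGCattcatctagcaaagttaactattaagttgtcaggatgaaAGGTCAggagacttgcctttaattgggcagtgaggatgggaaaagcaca
Abcb11, chr2:69342617-69342866, - strand: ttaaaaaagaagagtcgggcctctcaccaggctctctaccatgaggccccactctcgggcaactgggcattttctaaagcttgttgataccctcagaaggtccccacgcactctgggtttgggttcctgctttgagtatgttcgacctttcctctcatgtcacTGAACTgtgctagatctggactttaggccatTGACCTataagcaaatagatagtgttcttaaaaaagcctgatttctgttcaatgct
Abcb4 held 1 hexamer, Abcc2 held 1 hexamer and 1 antioxidant response core, and Abcb11 held 2 hexamers. A hexamer was present in 24.2% of 32851 RefSeq windows of 250 bases, and the antioxidant response core in 10.2%. Pairs of hexamers were searched as direct repeats spaced by 4 bases (DR4) or 3 bases (DR3), inverted repeats spaced by 1 base (IR1) and everted repeats spaced by 6 bases (ER6), where overlaps with single hexamers were allowed. None of these pairs lay in the 250-base windows of these 3 genes. DR4 was present in 0.0244% of all windows, DR3 and IR1 in 0.0122% each and ER6 in 0.00913%. A match is a description of letters and not a binding site.

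Abcc3, also called MRP3, exports glucuronide conjugates and bile acids across the basolateral membrane into blood. Its gene lies at chr11:94343295-94393017 (GRCm38.p6), and 1 probe set read it. In wild-type livers it rose with TCPOBOP and phenobarbital, and in human CAR livers it rose with CITCO and phenobarbital. In knockout livers, which lack both receptors, it rose with phenobarbital, by 1.05 (adjusted p = 0.0103). It was the only one of the 6 tested pumps called in more than 1 of the 9 comparisons of a ligand with corn oil.

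Abcc3 levels were 10.61 and 10.61 in wild-type mice given TCPOBOP, against 9.11 and 8.64 in wild-type mice given corn oil. The change was 1.73 (SE 0.14), a 3.32-fold rise with an adjusted p of 8.87e-07 in limma. Both TCPOBOP livers lay above both corn oil livers, and the corn oil pair was the most unequal of the 12 pairs for this gene.

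Phenobarbital gave Abcc3 levels of 10.38 and 10.68 in wild-type mice, against the same corn oil pair. The change was 1.66 (SE 0.14), a 3.15-fold rise with an adjusted p of 9.80e-06. TCPOBOP exceeded phenobarbital by 0.08 in wild type, with a 95% interval of -0.23 to 0.38, so a difference of either sign within that interval could not be resolved. CITCO gave levels of 9.18 and 9.47 in wild-type mice, both above the corn oil pair. That change of 0.45 (SE 0.14) was not called (adjusted p = 0.515).

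With the human receptor in place of the mouse one, Abcc3 rose with CITCO and phenobarbital and was not called with TCPOBOP. CITCO gave Abcc3 levels of 10.15 and 10.00, against 9.12 and 9.05 on corn oil, a change of 0.99 (SE 0.14, 1.98-fold, adjusted p = 0.00654). Levels with phenobarbital in these mice were 9.81 and 9.80, a change of 0.72 (SE 0.14, 1.65-fold, adjusted p = 0.0333). TCPOBOP gave 9.10 and 9.22 in human CAR mice, which overlapped their corn oil pair, a change of 0.08 (SE 0.14, adjusted p = 0.942). Replicate 1 of the phenobarbital pair was one of the arrays that stood apart, and without both such arrays the change was 0.71 (adjusted p = 0.206), with 7 probe sets called in this comparison in place of 126. Without replicate 1 of the human CAR phenobarbital group alone the adjusted p was 0.275. The phenobarbital call was also lost without replicate 1 (adjusted p = 0.196) or replicate 2 (adjusted p = 0.0750) of the human CAR corn oil group. The call for CITCO was lost, at an adjusted p of 0.0696, without replicate 1 of the human CAR CITCO group, and at 0.110 without replicate 1 of the human CAR corn oil group. Against corn oil and TCPOBOP arrays together, an alternative added after seeing the data, the CITCO change was 0.95 (adjusted p = 0.00205, 0.177% of all probe sets called). The phenobarbital change was 0.68 there (adjusted p = 0.0142, 3.00% called) and 0.67 without both arrays that stood apart (adjusted p = 0.154).

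In knockout livers, which have neither receptor, Abcc3 rose with phenobarbital and was not called with TCPOBOP or CITCO. Levels were 9.47 and 9.39 with phenobarbital, against 8.26 and 8.50 on corn oil, a change of 1.05 (SE 0.14, 2.07-fold, adjusted p = 0.0103). Without the arrays that stood apart the change was 1.09 with an adjusted p of 0.0761, and 1 probe set was called in this comparison in place of 57. Without replicate 2 of the knockout phenobarbital group alone the adjusted p was 0.0985. The knockout corn oil pair was the lowest of the 12 groups, and against all 6 other knockout arrays the phenobarbital change was 0.66 (adjusted p = 0.0910, 0% of all probe sets called). Leaving out replicate 1 of the knockout corn oil group gave 0.93 (adjusted p = 0.0947).

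TCPOBOP gave Abcc3 levels of 9.09 and 9.11 in knockout mice, a change of 0.72 (SE 0.14) that was not called (adjusted p = 0.0884). CITCO gave 8.78 and 8.84 in knockout mice, a change of 0.43 that was not called (adjusted p = 0.367). All 6 of these ligand arrays lay above both knockout corn oil arrays.

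Of 7 markers of Kupffer cells, the macrophages of the liver, limma called 2 lower with phenobarbital, 1 with TCPOBOP and 0 with CITCO in knockout mice. Of all probe sets 0.421%, 0.0813% and 0.0222% were called in these comparisons. At an unadjusted p under 0.05 there were 7, 6 and 7 of the 7 markers, against 20.3%, 11.2% and 9.19% of all probe sets. With phenobarbital Marco fell by 1.57 and Cd5l fell by 1.67. The list median was -1.15, against 0.03 over all probe sets. The mean level of the 7 markers lay between 6.91 and 7.61 in knockout mice given phenobarbital, against 8.29 to 8.45 in those on corn oil. That knockout corn oil pair was the highest of the 12 groups, and it is the shared baseline of these ligand comparisons. With TCPOBOP in knockout mice Marco fell by 1.47, and the mean level was 7.22 to 7.73. With CITCO in knockout mice limma called 0 of 7 (7 at an unadjusted p under 0.05), the list median was -0.73 and the mean level was 7.52 to 7.70. Without the arrays that stood apart Marco differed by -1.46 and Cd5l by -1.12 with phenobarbital, and neither was called (adjusted p = 0.117 and 0.182). Each of the 7 markers lay above the dim limit on all 24 arrays. The part of these cells in the Abcc3 changes was not tested.

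**Figure D1:**
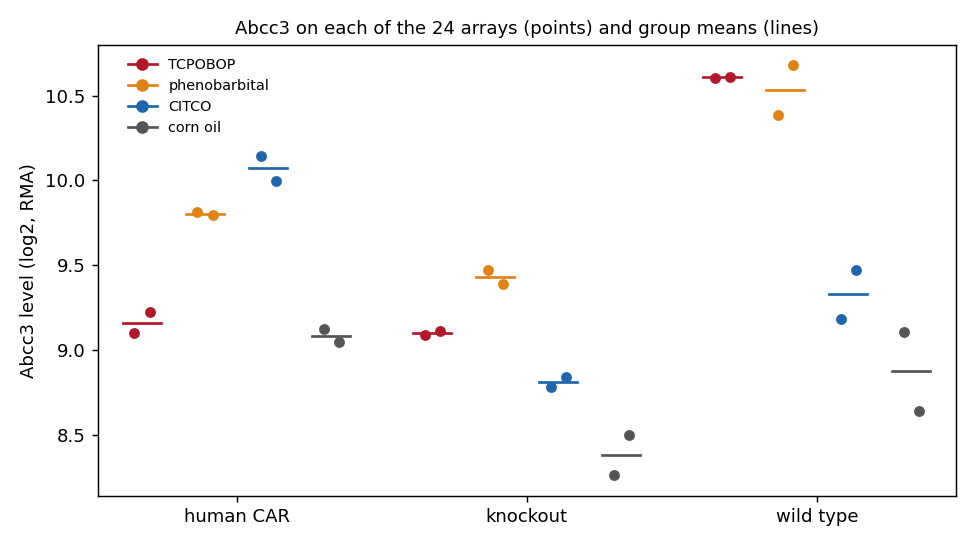
Abcc3 level (log2) on each of the 24 arrays, by genotype along the horizontal axis and by treatment in colour. Points are mice and lines are the means of 2 mice. Wild-type mice given TCPOBOP or phenobarbital lie at 10.38 or above, and the other 20 arrays lie between 8.26 and 10.15.

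Over the 12 groups the mean Abcc3 level ran down through wild type with TCPOBOP (10.61), wild type with phenobarbital (10.53), human CAR with CITCO (10.07) and human CAR with phenobarbital (9.80). Knockout with phenobarbital (9.43), wild type with CITCO (9.33), human CAR with TCPOBOP (9.16) and knockout with TCPOBOP (9.10) followed. The lowest were human CAR on corn oil (9.08), wild type on corn oil (8.88), knockout with CITCO (8.81) and knockout on corn oil (8.38). Of the 11 pairs of neighbours in this order 8 differed by no more than 0.30, the margin on either side of a difference between 2 groups in its 95% interval. The other 3 gaps, chosen by the order itself and so given with no test, lay between wild-type phenobarbital and human CAR CITCO, between human CAR phenobarbital and knockout phenobarbital, and between knockout CITCO and knockout corn oil.

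Tests of the differences between genotypes used the ligand changes themselves. For TCPOBOP the Abcc3 change was 0.72 in knockout mice and 1.73 in wild type. The difference, taken as wild type minus knockout, was 1.01 (SE 0.20, adjusted p = 0.0132). It lost its call without replicate 2 of the wild-type corn oil group, where it was 0.78 (adjusted p = 0.0711), without replicate 2 of the knockout corn oil group (0.89), without replicate 2 of the wild-type TCPOBOP group (1.01) or without replicate 1 of the knockout TCPOBOP group (1.00). The TCPOBOP change was 0.08 in human CAR mice, and the difference, taken as wild type minus human CAR, was 1.65 (SE 0.20, adjusted p = 0.000178). For TCPOBOP, wild type minus knockout, 1 of 7 Kupffer markers was called (Marco, 1.64), where 1.92% of all probe sets were. At an unadjusted p under 0.05 there were 5 of the 7, against 12.1% of all probe sets, and the list median was 0.86. The knockout corn oil pair, the highest of the 12 groups for these markers, enters this difference.

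For phenobarbital no difference of Abcc3 changes was called. Wild type minus human CAR was 0.94 (SE 0.20, adjusted p = 0.0779), wild type minus knockout was 0.61 (adjusted p = 0.370), and human CAR minus knockout was -0.33 with a 95% interval of -0.76 to 0.10 (adjusted p = 0.769). Without both arrays that stood apart they were 0.95, 0.57 and -0.38. For CITCO, human CAR minus knockout was 0.56 (adjusted p = 0.594) and human CAR minus wild type was 0.53 (adjusted p = 0.412). The rise of Abcc3 with CITCO in human CAR mice was therefore not shown to differ from the smaller changes in the other genotypes.

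**Figure D2:**
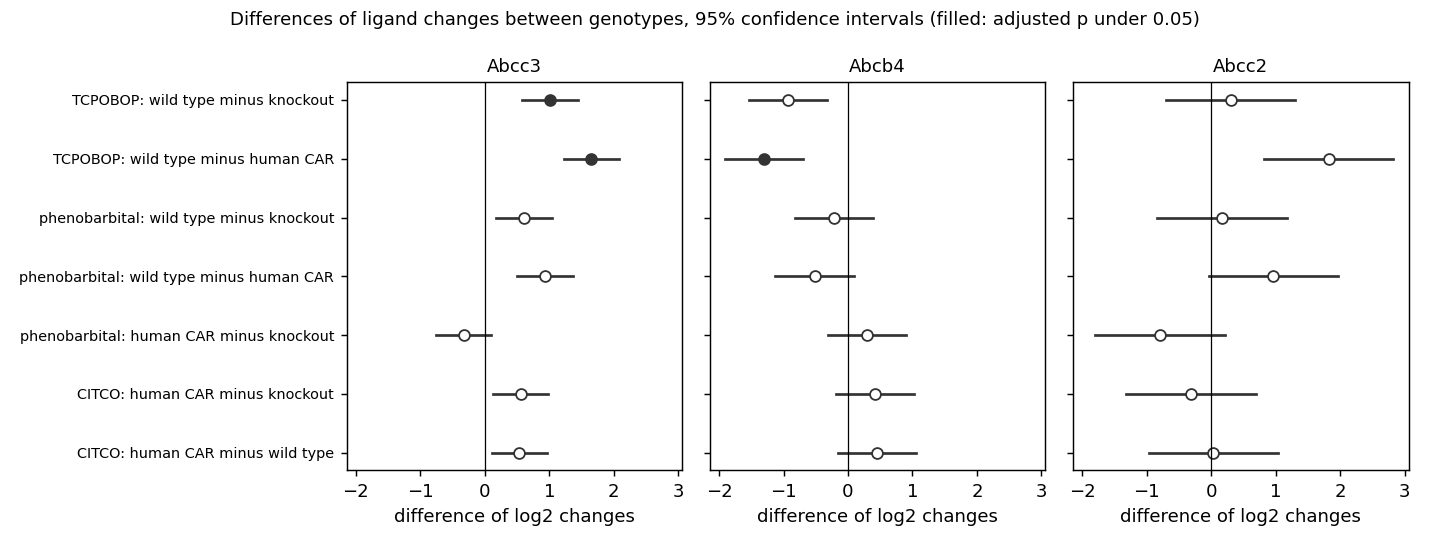
Differences of ligand changes between genotypes (log2) for Abcc3, Abcb4 and Abcc2, with 95% confidence intervals as lines. Filled points have an adjusted p under 0.05: 1.01 and 1.65 for Abcc3 and -1.30 for Abcb4.

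On corn oil Abcc3 was 0.49 lower in knockout than in wild type, 8.26 and 8.50 against 9.11 and 8.64, which was not called (adjusted p = 0.387). It was 0.21 higher in human CAR mice than in wild type (adjusted p = 0.770) and 0.70 higher in human CAR mice than in knockout (adjusted p = 0.0830).

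Cyp2b10, a cytochrome P450 and the usual readout of CAR activity, was set beside Abcc3. It rose by 7.42 with TCPOBOP, by 7.03 with phenobarbital and by 3.23 with CITCO in wild type. In human CAR mice it rose by 3.01 with CITCO and by 2.78 with phenobarbital, the latter 2.85 without both arrays that stood apart. With TCPOBOP in human CAR mice it was 7.02 and 7.59, against 8.22 and 8.82 on corn oil, a change of -1.21 that was not called (adjusted p = 0.569). It was called in none of the 3 ligand comparisons of knockout mice (0 of 3 at an unadjusted p under 0.05), where its 8 arrays lay between 4.45 and 5.71 and 5 of them were dim. On corn oil its levels were 8.22 and 8.82 in human CAR mice, against 4.66 and 5.22 in wild type, a called difference of 3.58. One of these wild-type arrays lay below the dim limit and the other was at 5.22, so differences from the wild-type baseline start near background and may be understated. Abcc3 on the same arrays differed by 0.21, as given above. The comparisons share their corn oil arrays, so these values stand side by side. The Cyp2b10 probe set is of a kind that can bind related transcripts, so the Cyp2b10 values may include them.

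**Figure D3:**
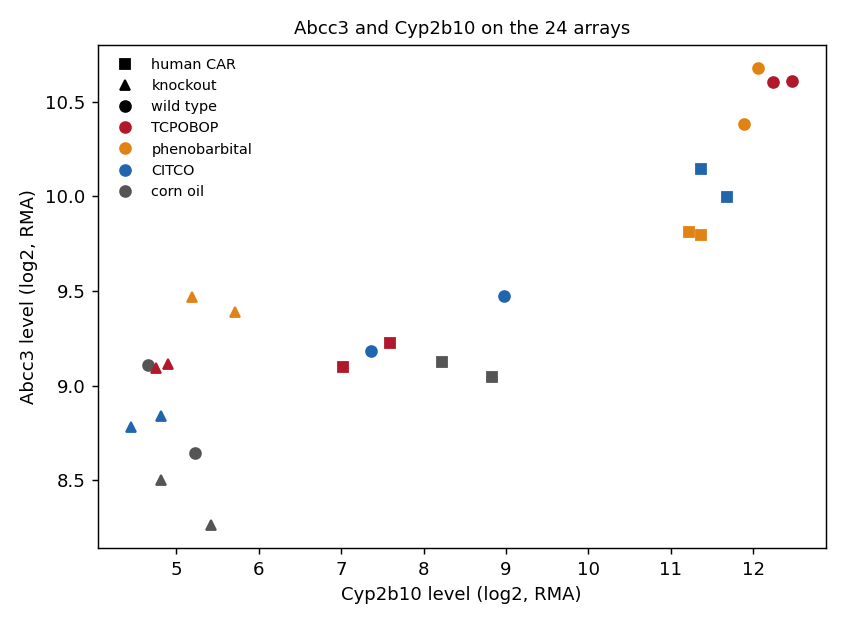
Abcc3 level against Cyp2b10 level (both log2) on the 24 arrays, with genotype as the marker shape and treatment as the colour. The knockout phenobarbital arrays have Abcc3 at 9.39 and 9.47 with Cyp2b10 at 5.19 and 5.71, and human CAR mice on corn oil have Cyp2b10 at 8.22 and 8.82 with Abcc3 at 9.12 and 9.05.

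The genes most like Abcc3 over the 12 group means were Cyb5a (cytochrome b5, an electron donor to P450 enzymes), Gstm1 and Gstm3 (glutathione transferases), Ces2a (a carboxylesterase) and Pvt1. Their Pearson correlations with Abcc3 were 0.97, 0.97, 0.94, 0.96 and 0.95, and that of Cyp2b10 was 0.89. These are descriptions over 12 group means that share treatments and genotypes, with no test.

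Abcb4, also called MDR2, is the canalicular floppase that delivers phosphatidylcholine to bile. It lies at chr5:8893614-8959226 and was the only other pump called. TCPOBOP in wild type gave levels of 9.16 and 9.09, against 10.08 and 10.13 on corn oil. The change was -0.98 (SE 0.20), a 1.97-fold fall with an adjusted p of 0.00774. Both TCPOBOP livers lay below both corn oil livers and below the other 22 arrays except 1 of the human CAR phenobarbital mice, at 8.98. The call was lost without replicate 2 of the wild-type corn oil group (adjusted p = 0.0622) or of the wild-type TCPOBOP group (adjusted p = 0.0681).

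Phenobarbital gave Abcb4 levels of 9.64 and 9.25 in wild type, a change of -0.65 that was not called (adjusted p = 0.151). CITCO gave 9.70 and 9.89 in wild type, a change of -0.30 (adjusted p = 0.762). In human CAR mice TCPOBOP gave 9.93 and 9.86, against 9.55 and 9.60 on corn oil, a change of 0.32 (adjusted p = 0.785). In knockout mice TCPOBOP gave 9.91 and 9.83, against 9.84 and 9.99 on corn oil, a change of -0.05 (adjusted p = 0.953).

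The TCPOBOP changes of Abcb4 differed between genotypes. Wild type minus human CAR was -1.30 (SE 0.29, adjusted p = 0.0250), with a change of 0.32 in human CAR mice and -0.98 in wild type. This call was lost when any 1 of the 8 arrays behind it was left out, with differences between -1.33 and -1.26. Wild type minus knockout was -0.93 (SE 0.29, adjusted p = 0.129) and was not called. It was called in 5 of 34 alternatives, among them array weights and a fit to wild-type and knockout arrays alone. On corn oil Abcb4 was 0.52 lower in human CAR mice than in wild type (adjusted p = 0.529), with no overlap between the pairs.

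By the same measure the genes most like Abcb4 over the 12 group means were Hsd17b4 (a peroxisomal enzyme of fatty acid oxidation, r = 0.97), Mgll (monoglyceride lipase, 0.96), Fastk (0.94), Gulo (an enzyme of ascorbate synthesis, 0.94) and F11 (coagulation factor XI, 0.93). Cyp2b10 had a correlation of -0.67 with Abcb4.

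**Figure D4:**
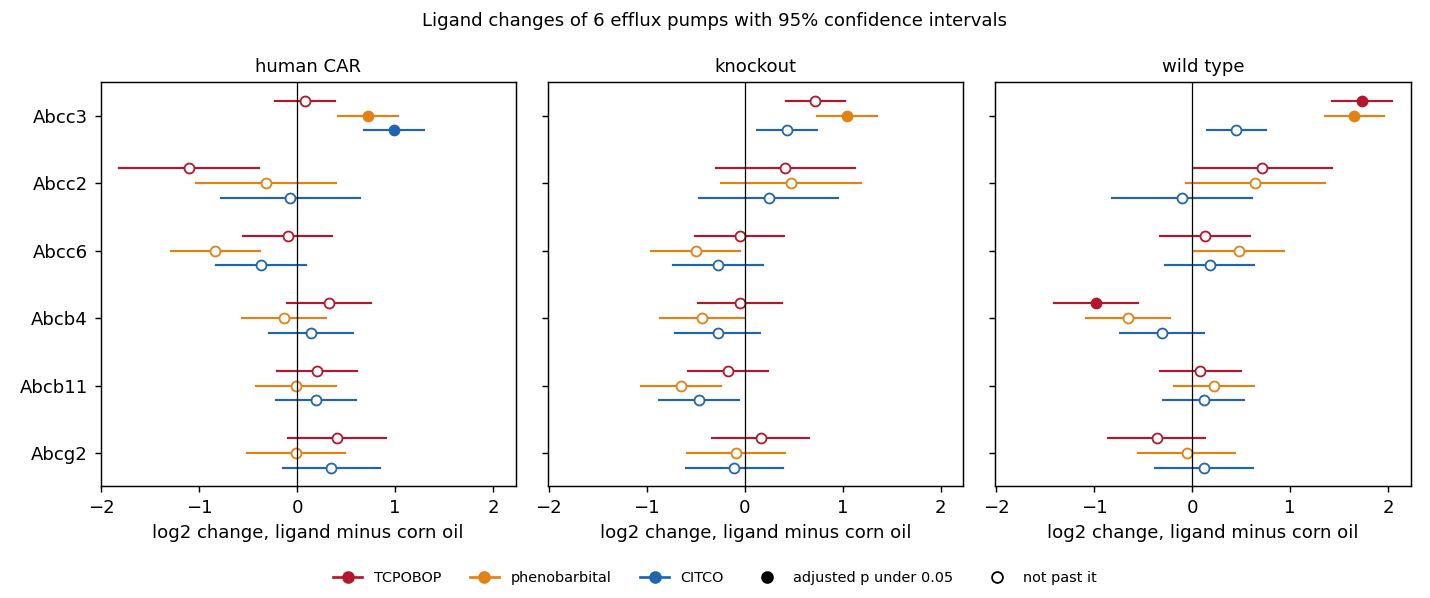
Change of each of the 6 tested pumps with each ligand against corn oil (log2), by genotype, with 95% confidence intervals as lines. Filled points have an adjusted p under 0.05: 5 for Abcc3 and 1 for Abcb4, at -0.98 in wild type with TCPOBOP.

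Abcc2, or MRP2, exports conjugates such as bilirubin glucuronides into bile and lies at chr19:43782308-43838332. Its only probe set is of a kind that can bind related transcripts, so its values may include them. In wild type its levels were 6.67 and 7.98 with TCPOBOP, against 6.54 and 6.68 on corn oil, a change of 0.72 (SE 0.34, adjusted p = 0.249). The TCPOBOP pair was the most unequal of its 12 pairs, 1.31 apart, and overlapped the corn oil pair. Without replicate 1 of the TCPOBOP group the change was called (adjusted p = 0.0219). Phenobarbital gave 7.27 and 7.24 in wild type, both above the corn oil pair, a change of 0.64 (adjusted p = 0.426).

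In human CAR mice Abcc2 was 5.77 and 5.37 with TCPOBOP, against 6.53 and 6.81 on corn oil, and the change of -1.10 was not called (adjusted p = 0.551). These were the lowest Abcc2 values of the 24 arrays. The TCPOBOP difference, wild type minus human CAR, was 1.82 (SE 0.48, adjusted p = 0.0627), which was not called. The pooled SD of Abcc2 between mice of 1 group was 0.38, against a median of 0.15 over all probe sets tested. Over the 9 ligand comparisons its changes ran between -1.10 and 0.72.

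Abcb11, the bile salt export pump, carries bile salts into the canaliculus and lies at chr2:69238282-69342616. In wild type its levels were 9.79 and 9.49 with TCPOBOP, against 9.59 and 9.52 on corn oil, a change of 0.09 with a 95% interval of -0.32 to 0.49. In knockout mice phenobarbital gave 9.64 and 8.93, against 9.86 and 10.00 on corn oil, a change of -0.65 that was not called (adjusted p = 0.109). The value of 8.93 came from the array that stood apart, and without both such arrays the change was -0.30 (adjusted p = 0.519). Over the 9 ligand comparisons Abcb11 changes ran between -0.65 and 0.22.

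Abcg2, or BCRP, exports drugs, porphyrins and urate into bile, and lies at chr6:58584491-58692451. Its levels were 7.14 and 7.37 with TCPOBOP in wild type, against 7.56 and 7.67 on corn oil, a change of -0.36 (adjusted p = 0.427). CITCO in human CAR mice gave 8.01 and 7.36, against 6.99 and 7.68 on corn oil, so the pairs overlapped. Its changes ran between -0.36 and 0.41 over the 9 ligand comparisons, and 5 of the 9 were negative.

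Abcc6, a basolateral pump known for its part in ATP release from hepatocytes and in preventing ectopic mineralisation, lies at chr7:45974110-46030491. Phenobarbital in human CAR mice gave 6.45 and 7.04, against 7.68 and 7.48 on corn oil, a change of -0.83 (SE 0.22) that was not called (adjusted p = 0.0652). The value of 6.45 came from the array that stood apart, and without both such arrays the change was -0.54 (adjusted p = 0.329). Against corn oil and TCPOBOP arrays together, the alternative added after seeing the data, the change was called, at -0.79 (adjusted p = 0.0353, 3.00% of all probe sets called). Without both arrays that stood apart it was -0.49 there and was not called. The change against corn oil alone was called when replicate 2 of the human CAR phenobarbital group or either knockout phenobarbital array was left out. Without that replicate 2 the group held only the array that stood apart. The knockout arrays do not enter this change, and leaving one out alters only the estimate of the spread and the correction of the p-values. In wild type the same drug gave 7.66 and 7.67, against 7.05 and 7.32 on corn oil, a change of 0.48 (adjusted p = 0.339). The phenobarbital difference, wild type minus human CAR, was 1.31 (SE 0.30) and was not called (adjusted p = 0.102), with 1.02 (adjusted p = 0.116) without both arrays.

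Abcb1a encodes one of the mouse P-glycoproteins, which export many drugs, and lies at chr5:8567091-8748575. One of its probe sets lay between 2.42 and 2.72 on the 24 arrays, and the other between 3.48 and 4.83, all below the dim limits of 4.93 to 5.08. The brighter probe set had 4.33 and 4.83 with TCPOBOP in wild type, against 3.53 and 3.75 on corn oil. In a fit with no filter on dim probe sets this change was 0.94 (adjusted p = 0.0112, 4.13% of all probe sets called), and that of the dimmer one was 0.27 (adjusted p = 0.0853). Values this low are near the array's background and are not read as a change.

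**Figure D5:**
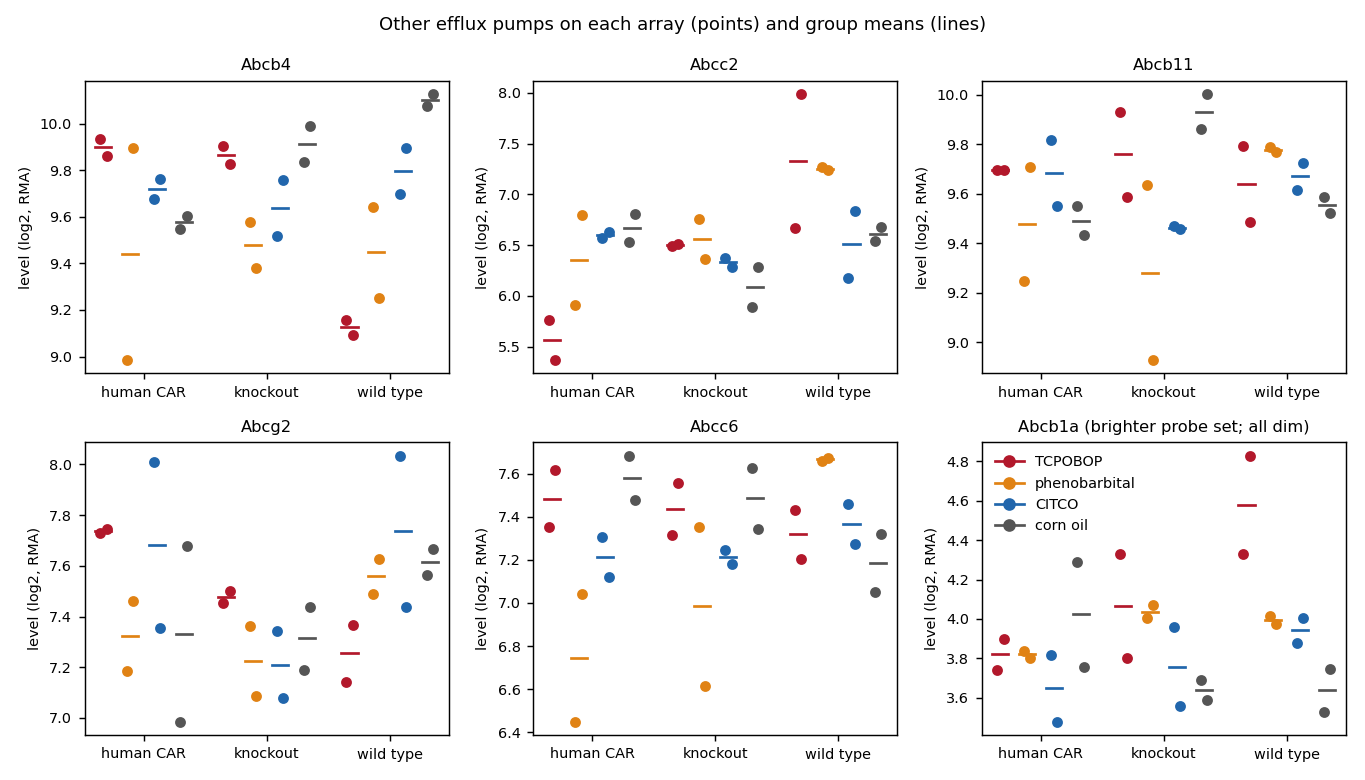
Levels (log2) of the other pumps on each of the 24 arrays, by genotype and treatment, with points for mice and lines for means of 2 mice. Abcb4 is lowest in wild type given TCPOBOP by group mean, at 9.13, and the Abcb1a probe set shown is dim on every array.

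Read over all 6 tested pumps, 9 of 120 pairs of a pump with a comparison were called. TCPOBOP in wild type called 2 pumps, 1 higher and 1 lower, where 5.75% of all probe sets were called. Phenobarbital in wild type called 1 against a background of 1.36%, phenobarbital in knockout 1 against 0.421%, phenobarbital in human CAR mice 1 against 0.932% and CITCO in human CAR mice 1 against 0.0961%. In each of these 4 the pump was Abcc3.

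In limma CITCO in wild type called 0 pumps (background 0.0665%), TCPOBOP in knockout 0 (0.0813%), CITCO in knockout 0 (0.0222%) and TCPOBOP in human CAR mice 0 (0%). At an unadjusted p under 0.05 there were 1, 1, 2 and 1 pumps, against 7.71%, 11.2%, 9.19% and 6.8% of all probe sets. TCPOBOP minus phenobarbital in wild type called 0 (background 1.26%), and 0 pumps had an unadjusted p under 0.05, against 10.8% of all probe sets. The genotypes on corn oil called 0 pumps in limma: human CAR minus knockout against a background of 0.111%, human CAR minus wild type against 0.0887% and knockout minus wild type against 0.207%. At an unadjusted p under 0.05 they had 2, 1 and 1 pumps, against 6.59%, 8.23% and 6.54% of all probe sets.

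Among the differences of ligand changes, TCPOBOP in wild type minus knockout called 1 pump where 1.92% of all probe sets were called, and TCPOBOP in wild type minus human CAR called 2 where 1.83% were. The phenobarbital differences called 0 in limma, against 0.251% for wild type minus knockout, 0.266% for wild type minus human CAR and 0.00739% for human CAR minus knockout. The CITCO differences called 0 as well, against 0.037% for human CAR minus knockout and 0% for human CAR minus wild type. These 5 comparisons had 3, 2, 1, 2 and 1 pumps at an unadjusted p under 0.05. Of all probe sets 8.94%, 10.4%, 7.75%, 6.8% and 9.9% were under that limit.

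Other genes of hepatic transport were taken from fixed lists. Of 6 measured basolateral uptake carriers, 2 fell with TCPOBOP in wild type: Slco1a1, an organic anion carrier, by 2.09 (adjusted p = 0.0145), and Slc22a7, another anion carrier, by 1.75 (adjusted p = 0.0327). The list median was -0.32, against 0.00 over all probe sets, of which 5.75% were called in this comparison. None of 4 tested canalicular transporters and none of 3 tested basolateral efflux carriers outside the 8 members was called in the 9 ligand comparisons in limma. At an unadjusted p under 0.05 there were 2 of 36 and 3 of 27 pairs of a gene and a comparison. Of all probe sets 6.8% to 20.3% were under that limit in these 9 comparisons.

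With TCPOBOP in wild type 5.75% of all probe sets were called, which is the background for the counts that follow. Of 28 other tested ABC genes, 1 fell with TCPOBOP in wild type, Abca8a, a lipid-related transporter, by 1.10 (adjusted p = 0.0484). Of 9 measured genes of bile acid synthesis and FXR targets, 2 fell there: Cyp8b1, the sterol 12-alpha-hydroxylase, fell by 2.15, and Cyp7b1, of the alternative bile acid pathway, fell by 1.94. Of 7 measured NRF2 targets, 1 rose, Srxn1, a reductase of oxidised peroxiredoxins, by 1.30 (adjusted p = 0.00992). Of 14 tested receptors and factors that regulate efflux pumps, limma called 0 with TCPOBOP in wild type. At an unadjusted p under 0.05 there were 6 of them, against 19.6% of all probe sets. With phenobarbital in wild type, where 1.36% of all probe sets were called, 1 of the 14 fell. It was Rxra, the partner of CAR, by 0.86 (adjusted p = 0.00561).

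Cholangiocytes also carry some of these pumps. Of their 5 measured markers Krt7, Epcam and Cftr were dim on all 24 arrays. The 2 tested ones, Krt19 and Sox9, were called in none of the 9 ligand comparisons in limma. At an unadjusted p under 0.05 there were 2 of 18 pairs, both with phenobarbital in human CAR mice, where 20% of all probe sets were. The mean level of Krt19 and Sox9 lay between 5.58 and 5.94 in human CAR mice given phenobarbital, against 5.21 to 5.27 on corn oil. That phenobarbital pair includes the array that stood apart. Over the 24 arrays Krt19 lay between 4.97 and 5.80 and Sox9 between 5.08 and 6.32, so both start near the dim limits of 4.93 to 5.08. The part of cholangiocytes in the Abcc3 change was not tested. With TCPOBOP in wild type, 1 of 7 neutrophil markers was called, Mpo at 0.52, with a list median of 0.15. Mpo lay between 4.59 and 5.40 and above the dim limit on 17 of the 24 arrays. Values this near background are not read as a change. With phenobarbital in human CAR mice limma called 0 of the 7 neutrophil markers, with a list median of 0.70 and 7 of 7 higher. At an unadjusted p under 0.05 there were 2 of these markers, against 20% of all probe sets. Their mean level was 6.93 on the array that stood apart and 5.59 on the other, against 5.81 and 5.47 on corn oil, and without both arrays that stood apart the list median was 0.15. Their part in the Abcc3 change was not tested.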

How the data were processed

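The authors deposited log2 expression values of 22690 probe sets on 24 arrays, made with RMA in R 2.15.0 per the submitters' processing notes. RMA corrects background and brings all arrays to 1 distribution, so no further normalisation was applied, and a shift of all genes cannot be seen. Array medians lay between 5.41 and 5.51, with 0 missing values. The deposited annotation gave 20380 probe sets with 1 gene symbol.

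Group means of the 12 groups were fitted with limma 3.58.1 (R 4.3.3) over the 24 arrays, which left 12 residual degrees of freedom, and 20 comparisons were made over 13524 probe sets of 9169 genes: 10 between treatments of 1 genotype, 3 between corn oil groups and 7 between the ligand changes of 2 genotypes. Each p-value sets a difference against the spread between mice of the same group, pooled over the 12 groups and drawn towards that of all probe sets. The steps were tested on simulated data. No 2 arrays were copies.

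The members, lists, tests and alternatives were chosen with earlier results of these data known. Genes named are the members, Cyp2b10, Nr1i3, list genes that passed (up to 4 per list and comparison) and the 5 genes most like each called pump by Pearson correlation over 12 group means.

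Alternatives were cyclic loess, other dim filters, 1 probe set per gene, a robust prior with a trend in the variance, weights for arrays, a replicate block, fewer arrays, a 2-fold limit and leaving out each array. Replicate numbers do not pair the mice: replicate deviations of 66 pairs of groups correlated between -0.44 and 0.42 (median 0.04). Figures were drawn with Python 3.11.15 and matplotlib 3.10.9.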

Additional observations from a re-analysis of the deposited data

Results flagged for a closer look

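The TCPOBOP response of 2 pumps differed between genotypes in a test of the difference itself. For Abcc3 the change was 0.72 in knockout and 1.73 in wild type, a difference, wild type minus knockout, of 1.01. It was 0.08 in human CAR mice, and wild type minus human CAR was 1.65. For Abcb4 the change was 0.32 in human CAR mice and -0.98 in wild type, and wild type minus human CAR was -1.30. Wild type minus knockout was -0.93 for Abcb4 and was not called (adjusted p = 0.129). That difference was called in 5 of 34 alternatives, among them a fit to wild-type and knockout arrays alone. A difference from human CAR mice and not from knockout mice is therefore not shown. The Abcb4 difference of -1.30 lost its call when any 1 of the arrays behind it was left out. It also lost it in a fit to wild-type and human CAR arrays alone (adjusted p = 0.0671). The Abcc3 difference of 1.01 lost its call without any 1 of several arrays, as given above. Dixon's test for an outlying mouse within a group needs more than the 2 mice of each group and was not run.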

How the results depend on the processing

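The rise of Abcc3 with TCPOBOP and with phenobarbital in wild type kept its direction and call in all alternatives tried, with changes of 1.50 to 1.97 and 1.42 to 1.89 when 1 array was left out. In human CAR mice the CITCO change of 0.99 was not called with array weights (adjusted p = 0.221), in a fit to that genotype's arrays alone (adjusted p = 0.0946) or at a 2-fold limit, and leaving out 1 array gave 0.91 to 1.06. The phenobarbital change there, 0.72, was not called under the same 3 settings (adjusted p = 0.191 and 0.203 for the first 2), nor without both arrays that stood apart (0.71), and leaving out 1 array gave 0.68 to 0.76. In knockout the phenobarbital change of 1.05 was not called with array weights (adjusted p = 0.0510), without both arrays (1.09) or against all 6 other knockout arrays (0.66, added after seeing the data), and leaving out 1 array gave 0.93 to 1.17. The cause of the lost calls was not tested.

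Within a genotype 6 pumps by comparison were called, 3 at a 2-fold limit and 4 to 9 when 1 array was left out. Between ligand changes 3 were called, 5 with array weights, 5 without both arrays and 1 to 7 when 1 array was left out: 1 without replicate 2 of the wild-type corn oil or TCPOBOP group, 7 without replicate 2 and 5 without replicate 1 of the human CAR phenobarbital group, and 6 without replicate 1 of the knockout phenobarbital group. Genotypes on corn oil called 0 in all settings. The Abcb4 TCPOBOP difference between wild type and human CAR was also not called in a fit to those genotypes alone (adjusted p = 0.0671). With the replicate block the counts were 6, 0 and 4, Abcc3 with phenobarbital in human CAR mice was 0.72 (adjusted p = 0.0417), and no call given above was lost. The block is no paired analysis, since the labels do not say that the numbers pair mice. Of 111 uncalled pairs of a pump and a comparison, 13 were called in at least 1 planned setting, among them Abcc3 with TCPOBOP in knockout and Abcb4 with phenobarbital in wild type, and 0 with the opposite sign. The added call under the block was the Abcc2 TCPOBOP difference between wild type and human CAR. Leaving out 1 array leaves a lone mouse, whose spread is taken from the other groups. Cyclic loess moved the median of all probe sets by at most 0.03.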

Other observations

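In wild type Nr1i3 was 1.01 lower with TCPOBOP than with phenobarbital (adjusted p = 0.00994), with 7.03 and 6.84 against 7.98 and 7.92. Abca8a had a change of -1.68 in the same comparison (adjusted p = 0.00970), the only 1 of 28 other ABC genes called there. Of all probe sets 1.26% were called in that comparison. At an unadjusted p under 0.05 there were 2 of these 28 genes, against 10.8% of all probe sets. Ppara, the receptor for fatty acids, had a TCPOBOP difference of -2.22 between wild type and knockout (adjusted p = 0.0481). The TCPOBOP differences, wild type minus human CAR, were -3.10 for Slco1a1, -2.99 for Cyp8b1 and -3.15 for Cyp7b1. On corn oil Marco was 1.73 higher in knockout than in wild type and 1.34 lower in human CAR mice than in knockout. Lists of hepatocyte, endothelial, stellate, lymphocyte and erythroid markers had no gene called in any of the 20 comparisons in limma. At an unadjusted p under 0.05 these 5 lists had 21 of 120, 22 of 140, 13 of 140, 9 of 80 and 8 of 20 pairs of a gene and a comparison. Of all probe sets 6.54% to 20.3% were under that limit, depending on the comparison. The erythroid list had 1 tested gene, Alas2, and the comparisons share arrays.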
